A study of Homo sapiens with 6 samples.

Results

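Tenascin C and 9 other genes of the pericellular matrix (TNC, PXDN, FN1, SPARC, THBS1, THBS2, VCAN, POSTN, CD44 and SPP1) were followed in T98G cells, an established glioblastoma (GBM) line, with and without CBX8. They were taken by symbol from the 57133 gene symbols counted, and all 10 were found. The set was drawn up with the fold changes of this same comparison already known, so the differences of these 10 genes between conditions are given as a description, without p-values. RNA was sequenced from T98G CBX8 KO cells made with a CRISPR guide, which then carried either the empty doxycycline-inducible vector (CBX8 KO, 3 libraries) or the vector with V5-tagged WT CBX8 (WT CBX8 re-expression, 3 libraries). All 6 received doxycycline at 1 μg/ml for 72 h, and by the study's methods all were CBX8 KO at the endogenous gene. The genotype label of the re-expression libraries reads wild type and their source label does not mention the KO, whereas their titles and the study's methods describe re-expression in KO cells, and the titles were followed. The vector and the transactivator were delivered by lentivirus with antibiotic selection, so the conditions are separately transduced and selected stable lines, and the number of transductions behind the libraries is not given in the sources used here. An effect of CBX8 and a difference between the lines cannot be told apart, and T98G cells with an intact CBX8 gene were not analysed here. The sources used here do not say whether the replicates were separate cultures, so each SD describes spread between libraries, which may be technical. The same limit applies to each standard error, interval and p-value below.

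Matricellular proteins are secreted into the extracellular matrix, where they modulate adhesion, migration and growth factor signalling more than they bear load. Tenascin C, the thrombospondins, SPARC, periostin and osteopontin are the classical examples, while fibronectin and versican form the provisional matrix they attach to and CD44 is the cell surface receptor for hyaluronan. Tenascin C is abundant in the matrix of glioblastoma. CBX8 is a chromodomain subunit of Polycomb repressive complex 1 (PRC1), which represses genes in chromatin marked by H3K27me3.

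CBX8, the targeted gene, had 96, 104 and 83 counts without the transgene and 30372, 31408 and 27791 upon re-expression, so all 6 libraries match their titles. Counts do not separate vector from endogenous transcripts. Total counts lay between 7950190 and 8659796. Of the 57133 symbols, 14461 passed the filter on low counts and were tested. At a false discovery rate (FDR) under 0.05 in edgeR, 12.9% of them were called, 6.23% higher and 6.63% lower upon re-expression, and 28.9% had no overlap between the libraries of the 2 conditions. The scaling factors lay between 0.971 and 0.987 in CBX8 KO and between 1.01 and 1.03 upon re-expression, and the number of symbols with a count lay between 21475 and 21674 and between 22208 and 22428. With library size scaling alone, which omits these factors, 1400 genes were called higher and 592 lower, in place of 901 and 959. The part of the number of symbols with a count was not tested. Of the 9 glial and glioma markers, VIM (21563 to 24449 counts), EGFR (2280 to 2738) and SOX9 (625 to 772) were well expressed, GFAP (13 to 30) and OLIG2 (14 to 38) were low, NES had at most 4 counts, and SOX2, S100B and FABP7 had 0 counts in every library, so the label of a glial tumour line rests on few markers here. The 4 endothelial and the 4 epithelial markers had at most 4 counts in any library, with KDR, KRT5 and KRT20 at 0, and the leukocyte markers reported here had at most 24. The 4 neuron markers summed to between 12.0 and 13.5 CPM in CBX8 KO and between 15.1 and 18.5 CPM upon re-expression, most of it SNAP25. Of the 5 glial markers tested, SOX9 was called lower (log2 change of -0.27). The other 4 were not called: OLIG2 (0.85), GFAP (0.68) and VIM (0.05) had higher counts in every re-expression library than in any CBX8 KO library, and EGFR (-0.0031) overlapped. The part of these markers in the results was not tested.

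The promoters of TNC and PXDN, the members with the highest fold changes upon re-expression, and of VCAN, the member with the lowest, are shown first, because they belong to the members with the largest differences in each direction. Each runs 5′ to 3′ on the strand of the gene, from 250 bases before to 50 bases after the RefSeq start, on build GRCh38.p14. Capitals mark TATAA and GGGCGG on either strand, the latter also read as CCGCCC. The windows are chr9:115118108-115118407 (minus strand) for TNC, chr2:1744466-1744765 (minus strand) for PXDN and chr5:83471494-83471793 (plus strand) for VCAN.
TNC: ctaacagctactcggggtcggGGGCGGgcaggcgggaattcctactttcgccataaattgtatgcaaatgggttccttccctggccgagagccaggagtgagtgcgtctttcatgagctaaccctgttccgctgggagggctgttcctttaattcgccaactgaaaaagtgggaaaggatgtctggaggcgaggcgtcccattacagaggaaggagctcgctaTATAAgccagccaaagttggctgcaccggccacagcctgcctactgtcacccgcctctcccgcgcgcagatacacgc
PXDN: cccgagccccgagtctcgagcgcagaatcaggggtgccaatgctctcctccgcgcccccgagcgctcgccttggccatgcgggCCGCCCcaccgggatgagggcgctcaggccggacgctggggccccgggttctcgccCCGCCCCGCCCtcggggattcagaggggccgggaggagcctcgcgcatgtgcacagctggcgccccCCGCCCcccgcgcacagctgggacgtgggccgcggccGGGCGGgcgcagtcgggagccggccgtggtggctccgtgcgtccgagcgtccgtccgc
VCAN: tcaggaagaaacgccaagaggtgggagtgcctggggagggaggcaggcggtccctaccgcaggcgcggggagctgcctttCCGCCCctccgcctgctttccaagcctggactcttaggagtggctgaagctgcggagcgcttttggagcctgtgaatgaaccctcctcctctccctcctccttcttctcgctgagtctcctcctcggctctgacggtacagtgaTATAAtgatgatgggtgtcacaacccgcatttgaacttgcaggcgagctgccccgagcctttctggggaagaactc

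The TNC window holds 1 TATAA, whose first base lies 27 bases before the start, 1 GGGCGG and 18 CpG dinucleotides, at 57.3% GC. The VCAN window likewise has 1 TATAA, 26 bases before the start, with 1 GGGCGG and 15 CpG dinucleotides at 60.3% GC. The PXDN window has no TATAA, 5 GGGCGG (2 of them overlapping) and 42 CpG dinucleotides at 78.3% GC, more CpG dinucleotides than 94.2% of the 35116 promoters listed in RefSeq. Thus the members with the highest and the lowest fold change both have a TATAA at the usual distance, and the members called higher include both kinds of promoter. Across the 10 members, GC content ran from 39% (POSTN) to 78.3% (PXDN) and CpG number from 3 (POSTN) to 42, against medians of 58.7% and 14 over all promoters and of 64.7% and 25 over promoters of tested genes. The members' own medians, 61.5% and 17.5, lay between these. TATAA on the strand of the gene, 35 to 20 bases before the start, was present in 5 of the 10 (TNC, FN1, THBS2, VCAN and POSTN), against 3.71% of all promoters and 2.43% of the 14184 promoters of tested genes. This window was chosen after the positions had been seen. Anywhere in the 300 bases and on either strand, TATAA was in 5 of 10 member promoters, 20.4% of all promoters and 11.75% of those of tested genes. GGGCGG was in 6 of 10, 44.95% and 65.7%, so the members' share lay above the first background and below the second. TGANTCA was in 1 of 10 (POSTN), 7.71% and 5.36%, and GGAATG in 3 of 10 (SPARC, THBS1 and THBS2), 14.03% and 11.4%. A match is a run of letters and not a bound site.

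Of the 10 members, 9 passed the filter on low counts and SPP1 did not. Of these 9, TNC, PXDN and FN1 were called higher upon WT CBX8 re-expression and VCAN and CD44 lower, beside 6.23% and 6.63% of all tested genes. For 7 of the 9 the libraries of the conditions did not overlap, beside 28.9% of all tested genes. Since the set was chosen on this comparison, nothing is read from these counts. The members together took between 0.807% and 0.841% of all counts in CBX8 KO and between 0.791% and 0.832% upon re-expression, ranges that overlap.

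**Figure D1:**
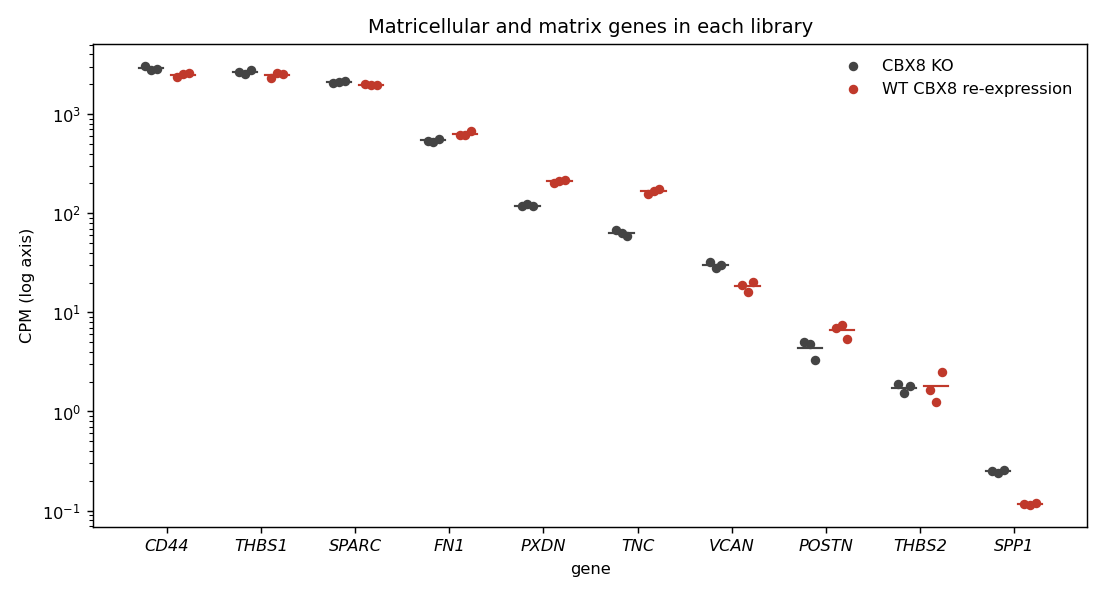
CPM of the 10 genes in each library (log axis), with CBX8 KO in grey, WT CBX8 re-expression in red, points for the 3 libraries of a condition and a line at their mean. TNC and PXDN stand higher in every re-expression library than in any CBX8 KO library and VCAN lower, while CD44, THBS1 and SPARC lie close together in both conditions. SPP1 rests on 1 or 2 counts per library.

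TNC encodes tenascin C, a hexameric glycoprotein that interferes with cell spreading on fibronectin. The gene spans 115019575 to 115118207 of chromosome 9 (hg38, minus strand), with 28 exons in its canonical transcript. TNC had 67.6, 63.8 and 58.9 CPM in the CBX8 KO libraries and 155, 169 and 175 CPM upon re-expression. Every re-expression library was thus well above every CBX8 KO library. The means were 63.4 ± 4.40 and 167 ± 10.1 CPM (SD, n = 3 per condition), a 2.62-fold difference, or a log2 fold change (hereafter log2 change) of 1.39 with a standard error (SE) of 0.06. In order of log2 fold change, TNC was number 41 from the top of the 14461 genes tested. An antisense gene, DELEC1, shares 1.35% of the exonic bases of TNC. Ratios of counts within a library, which no scaling changes, were apart as well. TNC counts were 3.02% ± 0.28 of SPARC counts in CBX8 KO and 8.41% ± 0.63 upon re-expression (SD, n = 3 per condition). Relative to FN1 they were 11.7% ± 1.01 and 26.3% ± 1.24 (SD, n = 3 per condition).

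PXDN encodes peroxidasin, a secreted haem peroxidase that crosslinks collagen IV in basement membranes. It spans 1631887 to 1744852 of chromosome 2 (minus strand), and no exon of another annotated gene overlaps its own. PXDN had 118, 123.1 and 118 CPM in CBX8 KO and 204, 213 and 216 CPM upon re-expression. The conditions were far apart relative to the spread within each, at 119.6 ± 3.05 and 211 ± 6.16 CPM (SD, n = 3 per condition), a 1.76-fold difference with a log2 change of 0.82 (SE 0.05). It was number 208 from the top.

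FN1 encodes fibronectin, the glycoprotein to which tenascin C, periostin and several integrins bind. It spans 215360440 to 215436073 of chromosome 2 (minus strand). FN1 had 541, 529 and 557 CPM in CBX8 KO and 613, 610.3 and 677 CPM upon re-expression. The conditions did not overlap, but the difference was small, 1.17-fold, with a log2 change of 0.22 (SE 0.05). PXDN counts were 22.1% ± 1.097 of FN1 counts in CBX8 KO and 33.3% ± 1.47 upon re-expression (SD, n = 3 per condition), so PXDN differed more than FN1 within the same libraries. Counts per gene do not separate the alternatively spliced forms of FN1, TNC or CD44.

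POSTN encodes periostin, a fasciclin domain protein that binds tenascin C and fibronectin. It was expressed at a low level, with 40, 40 and 26 counts in CBX8 KO and 59, 66 and 45 upon re-expression. In CPM these were 5.05, 4.75 and 3.33 against 6.93, 7.54 and 5.36, so the conditions were apart by little, and replicate 3 was the lowest of each. The log2 fold change was 0.59 with a 95% interval from 0.18 to 1.004, and POSTN was not called. It was called in 4 of 11 alternative fits, among them the one without WT CBX8 re-expression replicate 3, where the log2 fold change was 0.72.

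VCAN encodes versican, the large chondroitin sulfate proteoglycan that binds hyaluronan. It spans 83471618 to 83582303 of chromosome 5 (plus strand). VCAN had 32.2, 28.0 and 29.8 CPM in CBX8 KO and 18.8, 15.99 and 20.1 CPM upon re-expression. All re-expression libraries were below all CBX8 KO libraries, at 30.01 ± 2.08 and 18.3 ± 2.11 CPM (SD, n = 3 per condition), a ratio of 0.61 and a log2 change of -0.71 (SE 0.10). It was number 144 from the bottom. VCAN-AS1, which shares 3.09% of its exonic bases on the opposite strand, had 13 to 26 counts per library.

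CD44, the hyaluronan receptor, spans 35138882 to 35232402 of chromosome 11 (plus strand). CD44 had 3064, 2797 and 2825 CPM in CBX8 KO and 2366, 2532 and 2620 CPM upon re-expression. The conditions were apart, but CBX8 KO replicate 1 was the highest library, and CD44 was called lower with all libraries and not without this one (log2 fold change of -0.17, against -0.21 with all libraries, SE 0.05). VCAN counts were 1.04% ± 0.03 of CD44 counts in CBX8 KO and 0.732% ± 0.09 upon re-expression (SD, n = 3 per condition), so VCAN was lower also relative to CD44.

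SPARC and THBS1 had high counts and differed little. SPARC, a collagen-binding glycoprotein, had 2063, 2087 and 2154 CPM in CBX8 KO and 2017, 1963 and 1962 CPM upon re-expression. The conditions did not overlap, yet the log2 fold change was only -0.09 (95% interval from -0.19 to 0.01) and SPARC was not called. THBS1, a trimeric thrombospondin that activates latent TGF-β and binds CD47, had 2668, 2563 and 2807 CPM in CBX8 KO and 2297, 2587 and 2567 CPM upon re-expression. Its libraries overlapped, and the log2 fold change was -0.11 (95% interval from -0.22 to 0.004), not called. The intervals reach down to -0.19 for SPARC and -0.22 for THBS1, and they cover the spread between these libraries only. Exons of FSIP1, which had 1386 to 1566 counts per library, overlap 4.89% of the exonic bases of THBS1 on the opposite strand.

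THBS2 and SPP1 were close to the limit of detection. THBS2, the other trimeric thrombospondin, had 15, 13 and 14 counts in CBX8 KO and 14, 11 and 21 upon re-expression. The libraries overlapped, and the 95% interval of the log2 fold change ran from -0.64 to 0.72, so a difference of up to about that size was not detectable at this depth. THBS2-AS1 shares 31.3% of the exonic bases of THBS2 on the opposite strand. SPP1, which encodes osteopontin, had 2 counts in each CBX8 KO library and 1 in each re-expression library, all under a floor of 3 counts, and no fold is given.

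**Figure D2:**
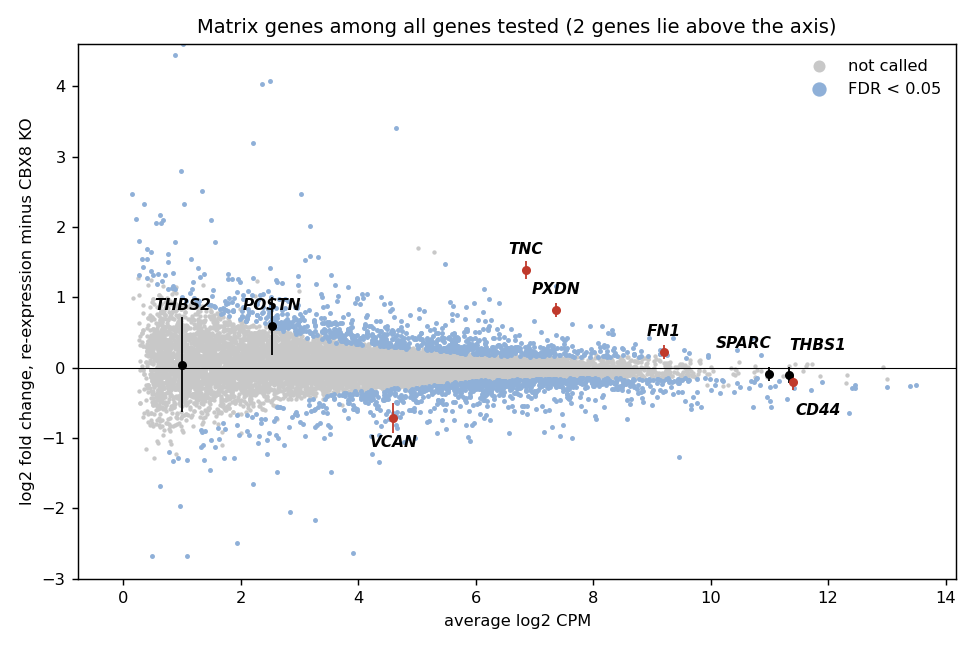
Log2 fold change (re-expression minus CBX8 KO) against average log2 CPM for the 14461 genes tested, grey where not called and blue at FDR < 0.05, with the 9 tested members and their 95% intervals in red (called) or black (not called). TNC and PXDN stand above the band of uncalled genes at their level and VCAN below it, and CBX8 and MSR1 lie above the upper limit of the axis.

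Levels of different genes were compared as CPM per kb of exon (all annotated exons of a gene joined). In CBX8 KO the order was SPARC (453 ± 10.3), THBS1 (293 ± 13.4), CD44 (290 ± 14.7), FN1 (31.5 ± 0.81), PXDN (10.6 ± 0.27), TNC (6.62 ± 0.46), VCAN (2.04 ± 0.14), POSTN (0.801 ± 0.17), THBS2 (0.242 ± 0.02) and SPP1 (0.0343 ± 0.0013), each in CPM per kb (SD, n = 3). Of these neighbours, only THBS1 and CD44 had overlapping libraries. SPP1 had 2 counts in each CBX8 KO library, under the floor of 3 counts, so its SD reflects only library size. Its place below THBS2 is not read in either condition. The order was the same upon re-expression, but 2 further pairs of neighbours then overlapped. PXDN (18.7 ± 0.55 CPM per kb) and TNC (17.4 ± 1.05 CPM per kb) came to lie together, with a ratio of means of 1.08 in place of 1.60 in CBX8 KO. VCAN (1.25 ± 0.14 CPM per kb) and POSTN (1.21 ± 0.21 CPM per kb) had a ratio of 1.03, against 2.55 in CBX8 KO. With the length of the longest transcript in place of the joined exons, THBS1 and CD44 changed places in both conditions, and so did VCAN and POSTN upon re-expression.

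The genes whose log2 CPM followed that of TNC most closely over the 6 libraries, of the 10385 whose average log2 CPM reached 3, were OXSR1 (Pearson r = 0.9998), CLOCK (0.9987), TTC7B (0.9976), PSG4 (0.9965) and TRIM52 (0.9965). The 6 libraries fall into the 2 conditions, so a large part of each r is the difference between conditions. The ranking is given as a description. Like TNC, each of these genes fell in CPM from CBX8 KO replicate 1 to 2 to 3 and was highest in re-expression replicate 3. Their own log2 fold changes were smaller than that of TNC, at 0.28 for OXSR1, 0.92 for CLOCK, 0.44 for TTC7B, 0.48 for PSG4 and 0.75 for TRIM52. PSG4 belongs to a family of near-identical genes, and CTC-338M12.4 shares 27.6% of the exonic bases of TRIM52 on the opposite strand, so the counts of both are uncertain.

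**Figure D3:**
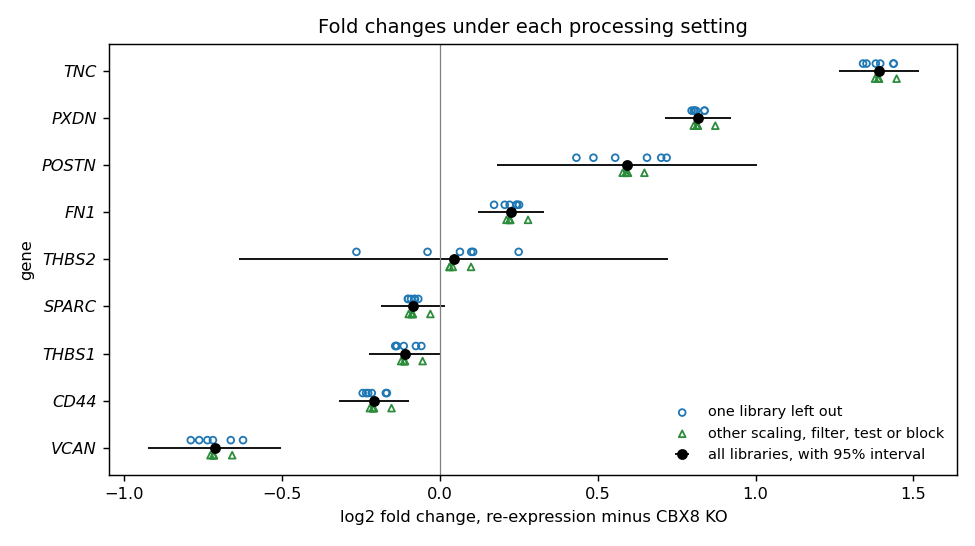
Log2 fold change of the 9 tested members with all libraries (black, 95% interval), with 1 library left out (blue circles) and under other scaling, filter, test or block (green triangles). Every setting keeps TNC between 1.34 and 1.45 and PXDN between 0.80 and 0.87, VCAN stays between -0.79 and -0.62, and THBS2 takes both signs.

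To place the members among related genes, 4 lists were drawn up by gene family and function, with earlier results of these data known. The shares called and the medians below therefore describe the lists and do not test them. Each gene was tested with edgeR's quasi-likelihood test, with p-values adjusted over all 14461 genes tested. The share over all tested genes was not matched to the lists by expression level. Its distance from the lists is therefore not read as a property of matrix genes. Of 21 other matricellular genes, 9 were tested, 4 were called higher and 1 lower (55.6%, against 12.9% of all tested genes), and their median log2 fold change was 0.29, against 0.0049 over all tested genes. CCN2 (also CTGF), a connective tissue growth factor, rose from 28.6 ± 1.93 to 43.0 ± 2.60 CPM (SD, n = 3 per condition), a log2 change of 0.59 (SE 0.09, edgeR adjusted p = 2.17e-05). CCN1 (also CYR61), an integrin-binding relative of CCN2, rose by 0.29 on the log2 scale (SE 0.05, edgeR adjusted p = 1.35e-04). In contrast CCN4 (also WISP1), of the same family and named as a Wnt-induced protein, fell from 58.6 ± 2.22 to 32.0 ± 1.51 CPM (SD, n = 3 per condition), a log2 change of -0.87 (SE 0.07, edgeR adjusted p = 3.92e-09). The CCN family thus moved in both directions: CCN4 counts were 18.2% ± 0.86 of CCN1 counts in CBX8 KO and 8.13% ± 0.38 upon re-expression (SD, n = 3 per condition). Of the SPARC family, the testican SPOCK1 rose by 0.55 (SE 0.06, edgeR adjusted p = 1.05e-07) and FSTL1, a follistatin-like glycoprotein, by 0.42 (SE 0.05, edgeR adjusted p = 7.56e-07), whereas SPARC itself was not called. TGFBI, a relative of periostin and the gene with the most counts of the list, had 3099 ± 79.9 and 2985 ± 28.9 CPM (SD, n = 3 per condition) and was not called (edgeR adjusted p = 0.55, 95% interval of the log2 fold change from -0.16 to 0.05). Among the 12 not tested, TNR, TNXB, COMP, SMOC2 and SPOCK3 had 0 counts in all 6 libraries, which allows up to 3 counts in each. TNC was therefore the only tenascin with expression detected beyond 1 count.

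The hyaluronan network holds the synthases, link proteins, lecticans and hyaluronidases around VCAN and CD44, and the ERM proteins that tie CD44 to actin. Of its 24 genes, 13 were tested, 2 were called higher and 0 lower (15.4%, close to the 12.9% of all tested genes), with a median log2 fold change of 0.09. At an unadjusted p under 0.05, 0 genes were lower in edgeR, and 0 were called lower by DESeq2. EZR (ezrin) rose by 0.21 (SE 0.05, edgeR adjusted p = 0.0049) and RDX (radixin) by 0.19 (SE 0.05, edgeR adjusted p = 0.012), the latter not called without CBX8 KO replicate 3 (edgeR adjusted p = 0.075). MSN (moesin), with the most counts of the 3, had a log2 fold change of -0.0031 (95% interval from -0.10 to 0.10, edgeR adjusted p = 0.98). HAS2 had 0 counts in every library, and HAS3, the synthase with the most counts, had 203 to 245 per library and was not called (edgeR adjusted p = 0.84). The other lecticans were scarce, with 19 to 26 counts per library for BCAN and at most 1 for ACAN and NCAN, against 140 to 255 for VCAN.

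Of 26 other matrix glycoproteins and crosslinking enzymes, 19 were tested, 10 were called higher and 3 lower (68.4%, against 12.9% of all tested genes), with a median log2 fold change of 0.40. ECM1, a secreted matrix glycoprotein, rose most, from 43.2 ± 3.37 to 81.6 ± 5.47 CPM (SD, n = 3 per condition), a log2 change of 0.92 (SE 0.07, edgeR adjusted p = 5.58e-10). FBN1, the microfibril protein fibrillin 1, rose by 0.59 (SE 0.06, edgeR adjusted p = 1.56e-07). The basement membrane proteoglycans HSPG2 (perlecan) and AGRN (agrin) rose by 0.45 and 0.40 (SE 0.06 each, edgeR adjusted p = 5.50e-06 and 7.38e-05). LDLRAD2, which overlaps 11.7% of the exonic bases of HSPG2, had 80 to 110 counts in CBX8 KO and 127 to 152 upon re-expression. The other 6 called higher had log2 fold changes between 0.22 and 0.79. The 3 called lower were LOX (lysyl oxidase, -0.54, SE 0.05, edgeR adjusted p = 4.43e-08), its relative LOXL1 (-0.46, SE 0.08, edgeR adjusted p = 2.73e-04) and the basement membrane linker NID2 (-0.36, SE 0.07, edgeR adjusted p = 9.38e-04). Exons of RTRAF overlap 30.7% of the exonic bases of NID2, so its counts are uncertain. LOXL1-AS1 shares 9.21% of the exonic bases of LOXL1 on the opposite strand and had 251 to 279 counts per library. The lysyl oxidases, which crosslink collagen and elastin, did not move as a group: LOXL3 rose by 0.48 (edgeR adjusted p = 0.0061) and LOXL2, with the most counts, was not called (0.02, 95% interval from -0.08 to 0.12, edgeR adjusted p = 0.83). LOXL3 was named after its value was seen, as were FBLN5, the hyaluronan synthases, the lecticans other than VCAN, and the genes with 0 counts.

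Of 18 receptors for the members' proteins, 15 were tested, 4 were called higher and 3 lower (46.7%, against 12.9% of all tested genes), with a median log2 fold change of 0.07. The fibronectin receptor subunit ITGA5 rose from 157 ± 5.29 to 240.1 ± 8.34 CPM (SD, n = 3 per condition), a log2 change of 0.62 (SE 0.05, edgeR adjusted p = 1.52e-09). LRP1, an endocytic receptor that clears thrombospondins, rose by 0.69 (SE 0.08, edgeR adjusted p = 3.95e-07). ITGB1, the partner of ITGA5, rose by 0.14 (SE 0.05, edgeR adjusted p = 0.0497) and ANXA2, a tenascin C binding annexin, by 0.18 (SE 0.05, edgeR adjusted p = 0.020). ITGB1 was called in 2 of 11 alternative fits and in none with 1 library left out (edgeR adjusted p from 0.071 to 0.156). ANXA2 was called in 6 of 11, and not without replicate 2 or 3 of CBX8 KO (edgeR adjusted p = 0.091 and 0.098) or of re-expression (0.065 and 0.077). ANXA2 has processed pseudogenes that could share its reads. CD47, the thrombospondin receptor, fell by 0.28 (SE 0.05, edgeR adjusted p = 7.27e-04). ITGB3, a subunit of the vitronectin and osteopontin receptor, fell from 13.3 ± 0.25 to 8.55 ± 0.895 CPM (SD, n = 3 per condition), a log2 change of -0.64 (SE 0.13, edgeR adjusted p = 0.0011), and its partner ITGAV was not called (0.11, 95% interval from 0.01 to 0.22, edgeR adjusted p = 0.15, although called with library size scaling alone at 0.024). ITGA4 fell by 0.26 (SE 0.08, edgeR adjusted p = 0.030) and was called in 5 of 11 alternative fits. It was not called without CBX8 KO replicate 1 or re-expression replicate 1 or 2 (edgeR adjusted p = 0.15, 0.077 and 0.13). CERKL shares 26.4% of the exonic bases of ITGA4, and another annotated gene shares 33.2% of those of ITGB3. PTPRZ1, a phosphatase receptor of tenascin C, had 0 counts in every library, which allows up to 3 counts in each.

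**Figure D4:**
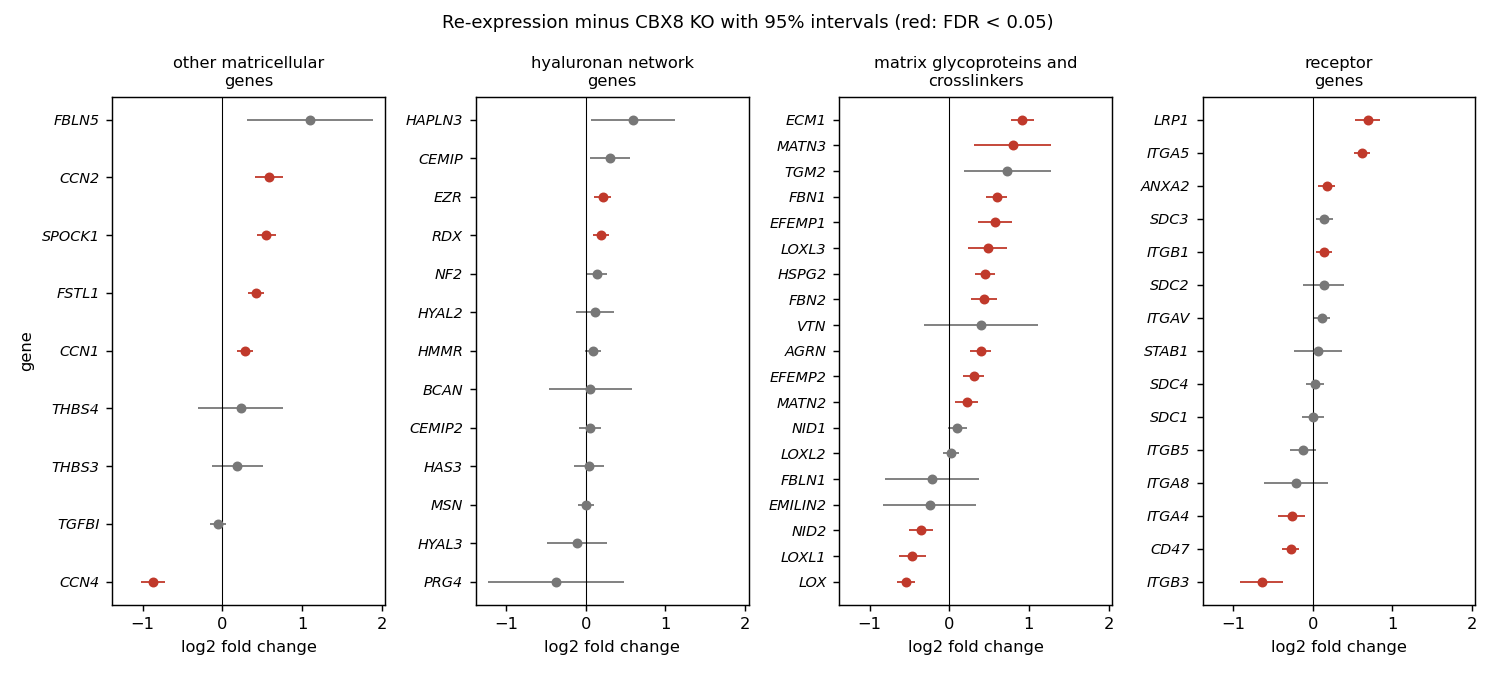
Log2 fold change (re-expression minus CBX8 KO) with 95% intervals for the tested genes of the 4 lists, red at FDR < 0.05 and grey otherwise. In the matricellular panel the called genes CCN2, SPOCK1, FSTL1 and CCN1 lie to the right and CCN4 to the left. FBLN5, with few counts and not called, lies furthest to the right (1.10, 95% interval from 0.30 to 1.89). In the receptor panel LRP1 and ITGA5 stand opposite ITGB3.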

How the data were processed

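Poly(A) RNA was sequenced as paired-end reads in 6 libraries, 3 CBX8 KO and 3 WT CBX8 re-expression. The authors trimmed adapters with Trimmomatic, aligned reads to hg38 with HiSat2 and deposited raw counts per gene symbol. The counting program, annotation and strand setting are not given in the sources used here, so reads of overlapping or near-identical genes could have been split.

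Columns were assigned to samples by their titles. In R 4.3.3, genes passing filterByExpr of edgeR 4.0.16 (minimum count 10) were normalized by TMM and tested by glmQLFit and glmQLFTest with condition as the only term, as the study's methods name edgeR at FDR < 0.05. Adjustment was Benjamini-Hochberg over all tested genes. CPM uses TMM-adjusted library sizes. Standard errors (SE) were obtained from the log2 fold change and its F statistic, and 95% intervals use the t distribution at the total degrees of freedom. The script was tested on simulated data.

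Libraries of a condition differed by more than counting error (chi-square over degrees of freedom from 1.96 to 2.90). PCR duplicates carry no molecular identifiers, so depth covers counting error only. Positions and lengths are from GENCODE release 44 (hg38) and promoters from RefSeq (GRCh38.p14), where all 10 members matched. None of the 41 named genes had at least 95% of its canonical transcript matched on an alternate contig of hg38 by minimap2 2.31.

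The members and lists were chosen with earlier results of these data known. Named genes are the members and CBX8, in each list the called genes (up to the 4 smallest adjusted p in each direction) and the highest expressed gene not called, and the 5 genes most like TNC. Alternatives were RLE and library size scaling, no filter, DESeq2 1.42.0, the replicate number as a block, each library left out, and another length.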

Additional observations from a re-analysis of the deposited data

How the results depend on the processing

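Of 11 alternative fits, TNC, PXDN, FN1 and VCAN kept their direction and their call in all 11, with log2 fold changes from 1.34 to 1.45, 0.80 to 0.87, 0.17 to 0.28 and -0.79 to -0.62. CD44 kept both in 10, the exception being the fit without CBX8 KO replicate 1. With 1 library left out, members called lower ranged from 1 to 2, hyaluronan network genes called higher from 1 (without CBX8 KO replicate 3) to 3, and receptor genes called higher from 2 (without CBX8 KO replicate 2 or 3 or WT CBX8 re-expression replicate 2 or 3) to 3. Of the other matrix glycoproteins and crosslinking enzymes, 10 were called higher with all libraries, 8 to 10 with 1 library left out and 8 by DESeq2. With the replicate number as a block, 2 receptor genes were called higher in place of 4. Library size scaling alone moved receptor genes called higher to 6. Deviations of same-numbered libraries were correlated at -0.12, -0.04 and -0.02, so no pairing was assumed, and the replicate block gave 739 higher and 766 lower calls over all genes in place of 901 and 959. Only values close to 0 changed sign, none of them called. TGFBI was at 0.0012 and MSN at 0.052 with library size alone. With 1 library left out, THBS2 ranged from -0.26 to 0.25, MSN from -0.024 to 0.019 and LOXL2 from -0.0075 to 0.045. The share of all calls that were higher was 48.4%, and 70.3% with library size alone. DESeq2 called 502 genes higher and 695 lower, and the fit without WT CBX8 re-expression replicate 2 called 593 and 635. The cause was not tested. With the longest transcript as length, all 10 levels per kb moved beyond 1 SD, by construction. DESeq2 gave no adjusted p for THBS2. At this depth THBS2 and BCAN, with at most 26 counts per library, had intervals wider than 1 log2 unit, and SPP1 could not be compared. In the lists, FBLN5, THBS4, HAPLN3, PRG4, EMILIN2, FBLN1, VTN and TGM2 also had intervals wider than 1 log2 unit. These list genes had at most 34 counts per library and were named after their values were seen.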
